A study of Mus musculus with 4 samples.

Results

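The cells described here are low-depth, vimentin-positive, non-immune barcodes from dissociated mouse pancreatic ductal adenocarcinoma. They were chosen by measured values alone: at least 500 and under 5000 UMIs, at least 300 detected genes, at most 20% of UMIs from mitochondrial genes, Vim at 10 or more per 10000 UMIs, Krt19 under 5 per 10000, and no UMI of the 5 leukocyte genes Ptprc, Laptm5, Tyrobp, Cd52 and Srgn. Of 56375 deposited barcodes, 3903 met this rule and are called members below. A UMI is a molecular tag that counts 1 captured RNA molecule. Depth, mitochondrial share, Vim, Krt19 and the leukocyte genes were used in the choice, so their values are description.

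The study sequenced 4 droplet libraries (10x Genomics), 1 per group, each made from tumour pieces of 3 animals that were pooled and digested with enzymes. Control animals received PBS. The PH library came from animals given paricalcitol, an activator of the vitamin D receptor, with hydroxychloroquine, which impairs lysosomal degradation. The G library came from animals given gemcitabine, a nucleoside analogue that blocks DNA synthesis, and the GPH library is titled for all 3 drugs, although its treatment label breaks off after gemcitabine at 60 mg/kg. Strain, sex, age, the origin of the tumours and the treatment times are not given in the sources used here. With 1 library per group no test was possible and no p-value is given. A difference between libraries cannot be told apart from a difference between pools of animals or preparations, and within a library fewer cells and less RNA per cell cannot be told apart.

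Droplet barcodes of low depth can hold small or quiet cells, cells that have lost part of their RNA, bare nuclei or free RNA. The compartments differ in their RNA: nuclei keep long noncoding RNAs such as Malat1 and Neat1 and unspliced transcripts of long genes, the cytosol holds spliced messages of ribosomal proteins and metabolic enzymes, and mitochondria hold their own transcripts. A cell whose outer membrane has opened loses cytosolic messages first, while a bare nucleus lacks mitochondrial transcripts as well. Vimentin is the intermediate filament of mesenchymal cells and of carcinoma cells that have lost epithelial traits, whereas Krt19 is a keratin of ductal epithelium.

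Each library's members were set beside its deep comparators. These are barcodes of 5000 UMIs or more that passed the same limits on genes and mitochondrial share, and that also passed the Vim, Krt19 and leukocyte limits after random thinning to depths drawn from that library's members. There were 6850, 9039, 1355 and 1412 comparators in control, PH, G and GPH. Levels are CPM, a gene's UMIs per 1000000 summed UMIs of a population, and ratios carry exact conditional binomial 95% intervals that cover counting error only.

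The deposited libraries held 7918 to 18589 barcodes and 143298547 to 190110092 UMIs, with a median of 4266 to 8338 UMIs per barcode. The members summed to 3412071, 6605861, 1086143 and 622333 UMIs in control, PH, G and GPH, so counting precision was lowest in GPH. Few members carried a barcode sequence that also occurred in another library: 12, 19, 4 and 3 in control, PH, G and GPH, or 0.871% to 1.28% of members against 1.05% to 1.28% of all barcodes. No doublet caller was run.

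Members were most frequent in the PH and control libraries. They were 1131 of 11051 kept barcodes in control (10.2%, exact Clopper-Pearson 95% interval 9.68% to 10.8%), 2182 of 16033 in PH (13.6%, 13.1% to 14.1%), 355 of 14022 in G (2.53%, 2.28% to 2.81%) and 235 of 4579 in GPH (5.13%, 4.51% to 5.81%). The intervals cover counting error only, so differences between the libraries cannot be told apart from differences between pools of animals or preparations. These shares depend on how many barcodes of other kinds a library held, and immune barcodes numbered 1402, 1251, 9887 and 167 in control, PH, G and GPH. Among vimentin-positive non-immune barcodes alone, that is members plus comparators, members made up 14.2%, 19.4%, 20.8% and 14.3% in control, PH, G and GPH. The order therefore changed with the denominator, and G was lowest by the first share and highest by the second.

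The immune limit removed 392, 935, 2118 and 50 barcodes in control, PH, G and GPH that met every other limit. Of these, 541 in PH had only 1 or 2 leukocyte UMIs, against 58 in control, 97 in G and 12 in GPH. The mitochondrial limit removed 574, 361, 71 and 251 further barcodes. Added to the members, those over the limit would have been 33.7%, 14.2%, 16.7% and 51.6% in control, PH, G and GPH, so in GPH more than 1 in 2 such low-depth barcodes lay outside the rule.

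**Figure D1:**
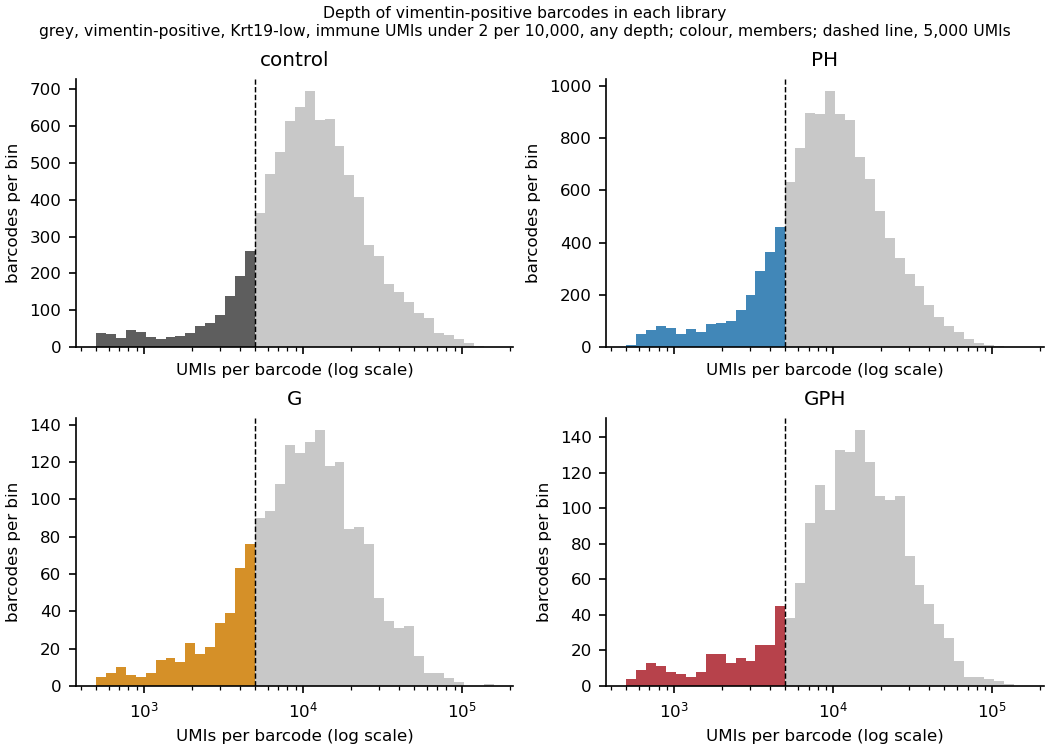
UMIs per barcode (log scale) against barcodes per bin in the 4 libraries, with members in colour and all barcodes of the same vimentin, Krt19 and immune make-up in grey. Most members lie on the left flank of the main peak, whose comparator median lay at 11315 to 15590 UMIs, and the dashed line at 5000 UMIs cuts that flank.

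As the histogram of UMIs per barcode shows, the distribution of the members continued into that of the comparators across 5000 UMIs. Its low end was not smooth: in the bins around 1000 UMIs and below, a small rise fell from 45 to 23 members per bin in control, 80 to 51 in PH, 10 to 5 in G and 13 to 5 in GPH before the climb to the main peak. In control, PH and G the bin of 4000 to under 5000 UMIs held the most members (33.2%, 30.7% and 33.0%), whereas in GPH the members were spread evenly, with 18.3% at 500 to under 1000 UMIs and 23.4% at 4000 to under 5000. Their median depth was 3370, 3286, 3255 and 2552 UMIs in control, PH, G and GPH, and the median number of detected genes was 1232, 1094, 1087 and 872. Just inside the limit, at 4500 to under 5000 UMIs, ribosomal protein RNA made up a median of 25.9%, 33.2%, 27.0% and 7.60% in control, PH, G and GPH. Just outside it, at 5000 to under 5500 UMIs, the medians were 26.9%, 33.4%, 28.0% and 10.9%, so this share was close on both sides in control, PH and G. Nuclear-retained RNA, described further below, was at a median of 455 and 405 per 10000 UMIs inside and outside in control, 188 and 185 in PH, 304 and 177 in G and 708 and 640.1 in GPH, so in G it was lower outside the limit. At the mitochondrial limit, ribosomal protein RNA was 10.6% in control members of 15% to 20% mitochondrial UMIs and 8.73% in barcodes of over 20% to 25%, with 19.1% and 12.7% in PH, 21.9% and 18.6% in G and 4.83% and 5.06% in GPH. At the Vim limit, members of 10 to under 15 per 10000 had 21.3%, 36.0%, 37.1% and 5.24% in control, PH, G and GPH, and barcodes of 5 to under 10 had 14.9%, 33.8%, 35.9% and 3.5%.

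The name given to these cells rests on Vim, Neat1 and Flnc, the last encoding the actin cross-linker filamin C. Vim reached 3150, 3301, 3101 and 2769 CPM in the control, PH, G and GPH libraries, below the comparators at 3963, 4498, 3554 and 4083. Neat1 was higher in members in every library, at 1145 against 254 CPM in control, 1064 against 693 in PH, 704 against 400.4 in G and 8892 against 1855 in GPH. Flnc was also higher, at 181 against 74.2 CPM in control, 76.3 against 54.7 in PH, 169 against 72.0 in G and 702 against 182 in GPH. Both differences were smallest in PH (log2 0.62 for Neat1 and 0.48 for Flnc) and largest in GPH (2.26 and 1.95).

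Most members nevertheless had no Flnc UMI once every barcode was thinned to 1000 UMIs, and outside GPH most had no Neat1 UMI. Neat1 was then found in 34.9%, 39.8%, 27.6% and 51.0% of members in the control, PH, G and GPH libraries, against 20.8%, 41.3%, 31.1% and 61.7% of comparators. Only in control was the share of members with Neat1 above that of comparators, so in the other 3 libraries the higher summed level came with no larger share of positive barcodes. Flnc was found in 12.2%, 6.04%, 9.29% and 30.2% of members and in 7.17%, 5.22%, 8.34% and 19.5% of comparators. As a measure of free RNA, low-depth immune barcodes, which should lack Flnc, had it in 0.985%, 0.472%, 0.112% and 1.87%. The same immune barcodes had Neat1 in 20.8%, 20%, 20.1% and 44.9%, since leukocytes transcribe it too. Before thinning, with a median of 3370 UMIs in members and 2196 in low-depth immune barcodes of control, Neat1 was found in 51.1% and 36.6%.

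Cdkn2a, the gene of the cell cycle inhibitors p16 and p19Arf, was found in members and comparators, at a lower level in members of every library and lowest in GPH. It reached 994, 1033, 918 and 445 CPM in the control, PH, G and GPH members, against 1243, 1163, 983 and 777 in comparators and 276, 284, 44.0 and 17.1 in immune barcodes. Barcodes high in keratin held it too, at 995, 1148, 251 and 302 CPM. At 1000 UMIs it was found in 56.3%, 59.3%, 54.5% and 29.7% of members, in 68.8%, 68.1%, 63.6% and 50.2% of comparators, and in 4.50%, 3.46%, 1.03% and 2.80% of low-depth immune barcodes.

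Macrophage and T cell markers were low beside immune barcodes. Macrophage genes summed to 31.4 to 134 CPM in members, against 5279 to 9067 in immune barcodes, and T cell genes to 26.1 to 42.4 CPM against 1288 to 2217. Only 46 members of PH, 3 of G, 1 of GPH and none of control had UMIs of 3 or more macrophage genes. Acinar, Schwann, adipocyte, platelet, erythroid and mast cell lists ranged from 0 to 30.5 CPM, and in GPH all 6 erythroid and all 6 mast cell genes were at 0 UMIs. Dendritic cell genes were at 80.9, 49.8, 55.2 and 43.4 CPM, close to the comparators at 78.3, 61.7, 63.8 and 53.7. That was 83.7%, 56.0%, 24.6% and 18.2% of the immune level in control, PH, G and GPH. Of the 8 dendritic cell genes, however, 5, 5, 7 and 6 were at 0 UMIs in members, and no member had 3 or more. Endothelial genes were at 81.8, 55.0, 117 and 81.9 CPM, against 50.4, 46.4, 62.4 and 54.9 in comparators. Pericyte genes were at 24.0, 15.9, 104 and 170.3 CPM, against 13.4, 8.33, 17.9 and 30.6, and Rgs5 alone gave 68 of their 113 UMIs in G and 62 of 106 in GPH. The mesothelial list was at 245, 272, 184 and 215 CPM, against 227, 242, 136 and 230.2, and nearly all of it was Msln, the surface protein mesothelin (241, 271, 181 and 210.5 CPM). The highest were the fibroblast list, at 1214, 743, 1585 and 2394 CPM in the control, PH, G and GPH libraries against 745, 495, 793 and 1287 in comparators, and the ductal epithelial list, at 1218, 1321, 1348 and 1816 CPM against 1545, 1771, 2307 and 2086. The fibroblast list was higher than in comparators in all 4 libraries (log2 0.71, 0.59, 1.00 and 0.90), with 1 of its 12 genes at 0 UMIs in each. In GPH the 14 members with Xist, described next, held 161 of 264 Dcn UMIs, 89 of 168 Col1a1 UMIs and 36 of 47 Lum UMIs. Of the more evenly spread Col3a1 and Dpt they held 86 of 610 and 34 of 233 UMIs. Without the host-like members, also described next, the GPH log2 ratio of Dcn fell from 1.40 to 0.14. The part of these barcodes in the GPH ratio of the whole fibroblast list was not tested.

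A few members held Xist, the RNA that coats the silenced X chromosome of female cells. Immune barcodes held it at 558 to 1541 CPM and comparators at 2.60 to 12.9 CPM. It was found in 16, 19, 12 and 14 members in the control, PH, G and GPH libraries. In those 14 GPH members no UMI of Cdkn2a was counted, but the gene was found in Xist members elsewhere. There were 7 such UMIs for control (190 CPM), 32 for PH (550 CPM) and 8 for G (255 CPM). Members without Xist held more, at 1002 CPM for control, 1038 for PH, 938 for G and 469 for GPH. Immune barcodes held 276 CPM for control, 284 for PH and 44.0 for G, so the Xist members of PH and G lay above them. Counting as host-like every member with Xist or with 3 or more markers of 1 lymphoid, myeloid, mast, endothelial or pericyte list gave 17, 68, 15 and 16 members, or 1.50%, 3.12%, 4.23% and 6.81%. For named genes, results that rest on them are given with and without them, or with the share of UMIs that members with Xist held.

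Members differed from comparators first in the make-up of their RNA. After thinning to 1000 UMIs, which left 954, 1921, 323 and 192 members in control, PH, G and GPH, the median barcode held 524, 476, 492 and 505 genes, against 511, 497, 501 and 534 in comparators. The number of genes at matched depth was thus similar. Ribosomal protein RNA made up a median of 23.7% in members against 31.3% in comparators of control, 33.3% against 33.5% in PH, 29.5% against 33.0% in G and 14.5% against 27.6% in GPH. The gap was widest in GPH and nearly absent in PH. Nuclear-retained RNA, the summed UMIs of 12 noncoding transcripts dominated by Malat1, had a median of 350 per 10000 UMIs in members and 200 in comparators of control. The medians were 170 and 100 in PH, 170 and 90.0 in G, and 435 and 410 in GPH. The spread within the members was large: the middle 50% of barcodes ran from 110 to 770 per 10000 in control, 40 to 370 in PH, 0 to 440 in G and 10 to 1130 in GPH.

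**Figure D2:**
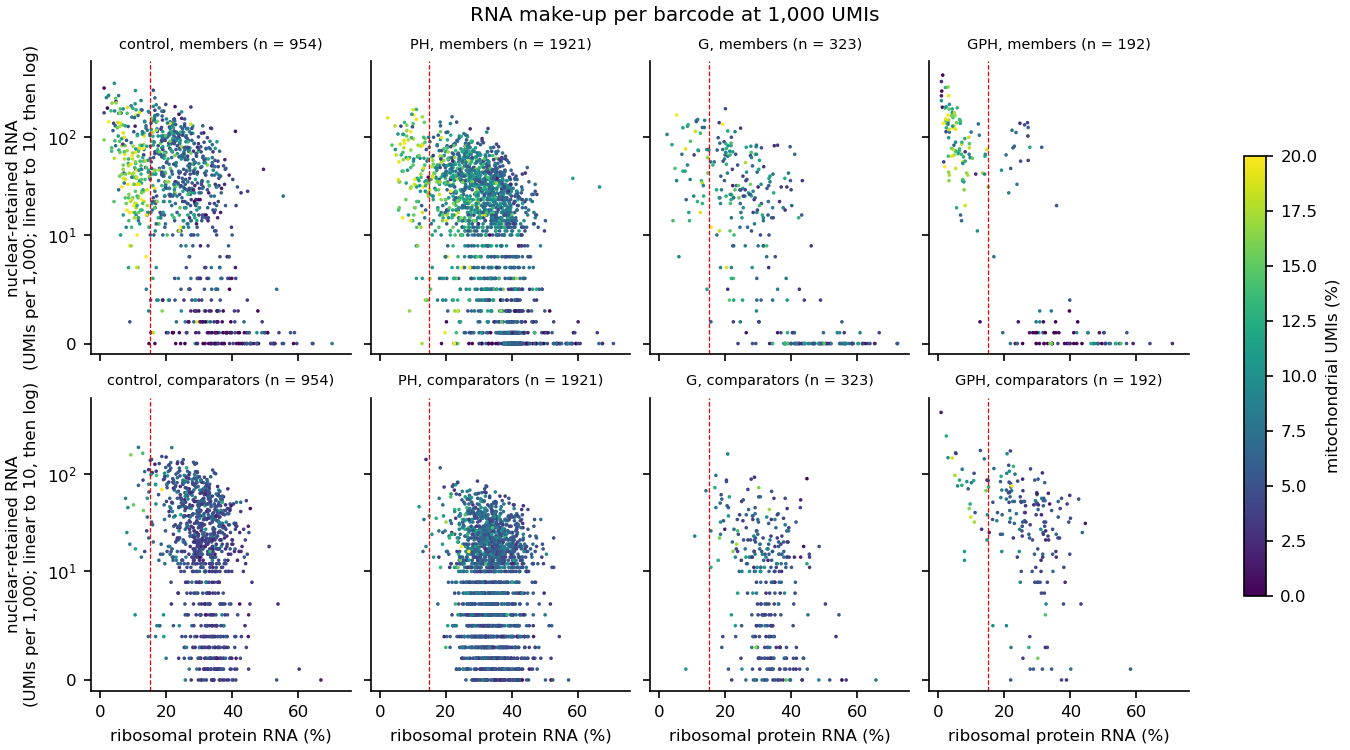
Share of ribosomal protein RNA (horizontal, % of UMIs) against nuclear-retained RNA (vertical, per 1000 UMIs) for each barcode thinned to 1000 UMIs, with members in the top row and comparators in the bottom row, coloured by mitochondrial share (%). Members spread from ribosome-poor barcodes with much nuclear RNA, left of the dashed line at 15%, to barcodes with no nuclear-retained RNA, while 88.0% to 95.3% of comparators lie between these.

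Summed over barcodes, nuclear-retained RNA took 5.28%, 2.55%, 3.38% and 7.24% of member UMIs across control, PH, G and GPH, against 2.22%, 1.19%, 1.12% and 4.08% in comparators (log2 1.25, 1.10, 1.59 and 0.83). Malat1, a nuclear-speckle RNA, carried nearly all of it, at 51496, 24309, 32944 and 63206 CPM in the control, PH, G and GPH members. Among the other members of the list, Airn, an antisense RNA of the Igf2r locus (log2 1.83, 0.94, 1.30 and 1.77), and Firre, an X-linked nuclear RNA (1.41, 0.82, 1.99 and 2.05), were higher in each library, whereas Pvt1 was near 0 (0.04, 0.17, -0.51 and 0.35). The count of listed genes at least 2-fold higher was 4 of 4 measured in control, 1 of 4 in PH, 3 of 5 in G and 4 of 8 in GPH. A gene was measured if it reached 20 CPM in either population and 20 UMIs over both. Of all measured genes, 9.74%, 1.36%, 5.39% and 14.9% were 2-fold higher in members across control, PH, G and GPH, and 1.07%, 1.98%, 4.67% and 6.87% were 2-fold lower. Because the comparison is the one that defined the members, these shares are given as context and nothing is read from them.

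The largest list ratios were those of 3 noncoding features that overlap ribosomal RNA sequence, Gm42418, AY036118 and Gm26917 (log2 2.22, 1.65, 2.35 and 2.66 in control, PH, G and GPH). Gm42418 reached 22872, 12577, 20541 and 69930 CPM in members, against 4757, 3933, 3924 and 10905 in comparators. All 3 features were at least 2-fold higher in all 4 libraries. Mitochondrially encoded messages, whose upper limit the rule sets, were also higher (log2 0.87, 0.51, 0.58 and 0.71).

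Messages of the cytosol were lower by smaller amounts. Ribosomal protein genes gave log2 -0.40, -0.05, -0.18 and -0.56 in control, PH, G and GPH, and none of 80 measured genes was 2-fold lower in any library. A list of 18 abundant cytosolic messages gave -0.45, -0.26, -0.22 and -0.59, and nuclear-encoded respiratory chain genes gave -0.39, -0.12, -0.25 and -0.64. Long genes of chromatin regulators, whose unspliced RNA is nuclear, went the other way, with 0.91, 0.27, 0.31 and 1.03. Of these, 11 of 24 measured were 2-fold higher in control, 0 of 23 in PH, 1 of 22 in G and 10 of 24 in GPH. Kmt2c, a histone H3 lysine 4 methyltransferase, had log2 1.65, 0.83, 0.69 and 1.60.

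**Figure D3:**
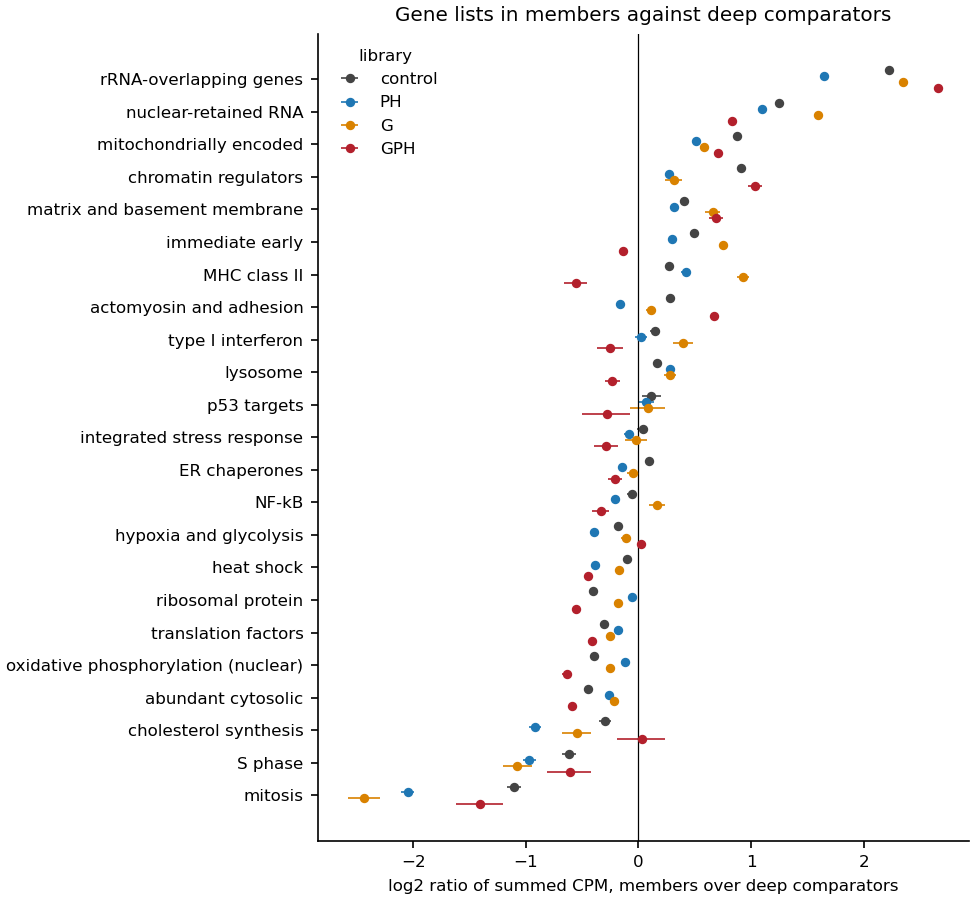
Log2 ratio of summed CPM, members over comparators, for the gene lists in each library, with exact 95% intervals for counting error. Ribosomal RNA-overlapping and nuclear-retained RNA lie above 0 and mitosis genes below 0 in all 4 libraries, while MHC class II lies above 0 in control, PH and G and at -0.56 in GPH.

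Mitosis genes were the lowest list, at log2 -1.10, -2.05, -2.44 and -1.41 in control, PH, G and GPH, with 10 of 16, 17 of 17, 21 of 21 and 11 of 15 measured genes 2-fold lower. Cdk1, the kinase that drives entry into mitosis, was at 24.9 against 63.0 CPM in control, 15.6 against 52.1 in PH, 21.2 against 83.6 in G and 14.5 against 38.5 in GPH. Mki67, a chromosome-coat protein of cycling cells, did not follow in control (log2 0.67) and hardly in GPH (-0.09), although it was lower in PH and G (-1.64 and -1.33). The level of mitosis genes also moved with depth inside the comparators: from 389 CPM at 5000 to under 10000 UMIs to 1932 at 20000 or more in control, 422 to 1864 in PH, 615 to 2702 in G and 363 to 1153 in GPH. In members of 4000 to under 5000 UMIs it was 496, 321, 347 and 286 CPM. Within the members those of 500 to under 1000 UMIs held the most, at 1429, 704, 651 and 908 CPM. These levels rest on 186, 144, 15 and 29 UMIs. Towards 5000 UMIs the level fell throughout in control. In PH, G and GPH it was higher at 4000 to under 5000 UMIs than at 3000 to under 4000. Against comparators of 5000 to under 20000 UMIs alone, none of the genes was 2-fold lower in all 4 libraries.

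Nuclear-retained RNA did not follow depth in 1 direction. Among members of control it was lowest at 500 to under 1000 UMIs (2.56% of UMIs) and highest at 2000 to under 3000 (5.54%). It was then 4.23% in comparators of 5000 to under 10000 UMIs and 1.46% at 20000 or more. The shallowest members were also the lowest of the members in PH (0.491%), G (0.330%) and GPH (2.09%). The peaks were 2.91% at 3000 to under 4000 UMIs in PH, 4.11% at 4000 to under 5000 in G and 8.76% at 3000 to under 4000 in GPH, and the deepest comparators held 0.836%, 0.678% and 3.29%.

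Among 4220 genes measured in all 4 libraries, 18 (0.427%) were at least 2-fold higher in members of each and 16 (0.379%) at least 2-fold lower. The higher genes were Tns1, Tmem87b, Pde7a, Il6ra, Dvl1, Lamb2, Lars2, Dcn, Dlg4, Ltbp2, Mylk, Mir99ahg, Spaca6, C3, Ogt and the ribosomal RNA-overlapping 3. The lower genes were Nusap1, Dut, Ube2c, Cks1b, Smc2, Ran, Cdca3, Prc1, Pclaf, Cdk1, Hmmr, Birc5, Hist1h2ap, Hist1h2ae, Ccnb1 and Krt19, whose level the rule limits. Both lists were named after their values were seen where they go beyond the naming rule. Without the host-like members, 14 of 4197 measured genes were higher and 16 lower, and Dcn and C3 were no longer among the higher ones.

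Lars2, which encodes the mitochondrial leucyl-tRNA synthetase (ENSMUSG00000035202, mm10 chromosome 9, 123366927 to 123462666), ranked first by its smallest ratio over the 4 libraries. It reached 1161 CPM in members against 194 in comparators of control, 484 against 135 in PH, 783 against 182 in G and 3371 against 433 in GPH (log2 2.58, 1.85, 2.11 and 2.96). In the barcodes of over 20% mitochondrial UMIs it was higher still, at 4566, 1909, 1630 and 8278 CPM. C3, the central complement component (chromosome 17, 57203970 to 57228136), was next, at 76.8 against 26.3 CPM in control, 66.9 against 28.0 in PH, 246 against 96.9 in G and 884 against 323 in GPH. Dcn, the matrix proteoglycan decorin (chromosome 10, 97479609 to 97518143), had log2 1.28, 1.06, 1.79 and 1.40. Without the host-like members the GPH values became 0.14 for Dcn and 0.80 for C3, so the Dcn difference in GPH rested on those 16 barcodes, and 61.0% of its member UMIs there lay in barcodes with Xist.

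Other genes named by the rule were higher by smaller margins. Nfat5, a transcription factor that responds to osmotic stress, had log2 1.75, 0.86, 1.05 and 1.85 in control, PH, G and GPH. Zbtb20, a zinc-finger repressor spanning 766722 bp, had 1.34, 0.76, 1.05 and 1.65, and Xdh, xanthine dehydrogenase, 0.84, 1.11, 1.53 and 1.31. Tnpo2, Sbno2, Meis1, Mmp14, Ypel3 and Chka ranged from 0.74 to 1.70. On the lower side Ube2c, the ubiquitin-conjugating enzyme of the anaphase-promoting complex, had -2.26, -1.93, -2.96 and -1.19. Ran, the GTPase of nuclear transport, was the most even of the lower genes, at -1.11, -1.07, -1.08 and -1.06. The remainder of the lower 12 were mostly cell cycle, nucleotide and chromatin genes (Hist1h2ap, Cks1b, Cks2, Prc1, Dut, Stmn1, H2afz, Ranbp1), with Fabp5 and Selenoh.

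The ratio of members to comparators rose with gene span in control, PH and GPH over all span classes and in G from 5 kb up. Genes spanning over 100 kb had a median log2 of 0.73, 0.20, 0.33 and 0.74 in control, PH, G and GPH. Genes under 5 kb had -0.16, -0.13, -0.13 and -0.57. The difference between long and short genes was therefore largest in GPH and smallest in PH. Genes over 100 kb took 7.40%, 6.96%, 6.36% and 11.4% of member UMIs, against 4.83%, 5.95%, 5.20% and 6.82% in comparators. Whether reads in introns were counted is not given in the sources used here, and its part in the span values was not tested.

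The scatter of ribosomal against nuclear RNA showed that the members were not uniform, so they were divided into 3 ranges after the data were seen. The ribosome-poor range holds barcodes with under 15% ribosomal protein RNA, the nuclear-RNA-free range those with at least 15% and no UMI of the 12 nuclear-retained RNAs at 1000 UMIs, and the middle range the remainder. These are ranges of continuous measures and not cell types. Within 3 percentage points of the ribosomal cut, between 12% and 18%, lay 145, 90, 25 and 10 members in the control, PH, G and GPH libraries, and 45, 124, 13 and 20 had exactly 1 nuclear-retained UMI.

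**Figure D4:**
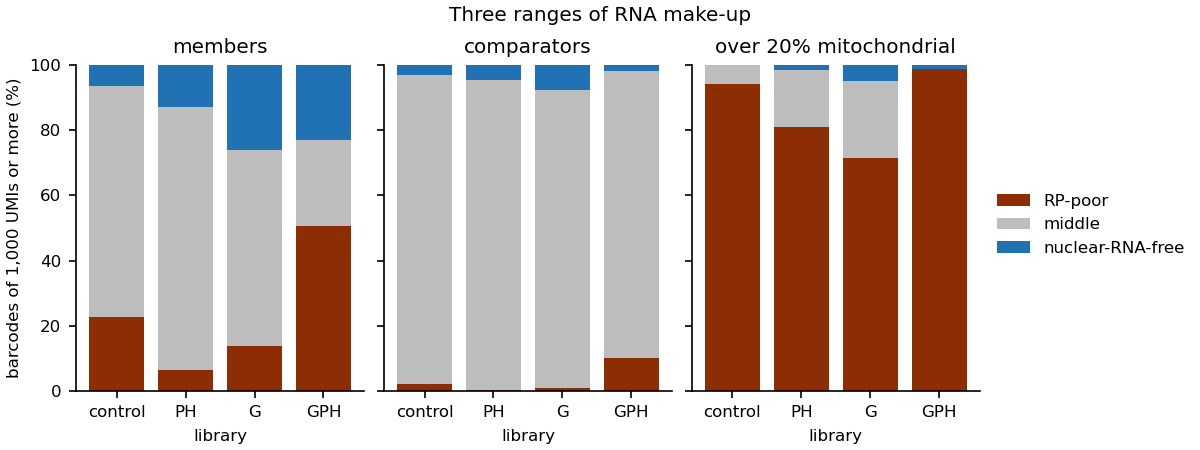
Share (%) of barcodes in the ribosome-poor, middle and nuclear-RNA-free ranges for members, comparators and barcodes over 20% mitochondrial UMIs in each library, at 1000 UMIs. The ribosome-poor share of members runs from 6.30% in PH to 50.5% in GPH, and that of barcodes over 20% mitochondrial UMIs from 71.4% to 98.8%.

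The libraries differed in the mixture. Ribosome-poor barcodes made up 22.7% of members in control (217 of 954, exact 95% interval 20.1% to 25.5%), 6.30% in PH (121 of 1921, 5.25% to 7.48%), 13.6% in G (44 of 323, 10.1% to 17.9%) and 50.5% in GPH (97 of 192, 43.2% to 57.8%). They made up 1.96%, 0.310%, 0.812% and 10.1% of comparators, and 94.3%, 80.9%, 71.4% and 98.8% of the barcodes over 20% mitochondrial UMIs. The nuclear-RNA-free range held 6.39%, 12.8%, 26.0% and 22.9% of members in control, PH, G and GPH, against 2.85%, 4.44%, 7.68% and 1.91% of comparators. The middle range held most members in control (70.9%), PH (80.9%) and G (60.4%), but 26.6% in GPH.

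The ribosome-poor members had many genes and high mitochondrial shares. At 1000 UMIs their medians were 583, 608, 550.5 and 548 genes in the 4 libraries, with 14.1%, 14.5%, 11.5% and 13.5% mitochondrial UMIs. Against comparators of the middle range, chromatin regulators had log2 2.08, 1.66, 1.26 and 1.87, and 23, 22, 17 and 22 of 24 measured genes were 2-fold higher. Of all measured genes, 46.3%, 48.0%, 41.7% and 38.1% were 2-fold higher there. CPM share 1 total, so lower abundant messages go with higher CPM of others. Respiratory chain genes had -1.68, -1.58, -1.01 and -2.20, with 22, 22, 15 and 23 of 24 lower, against 14.5%, 11%, 12.3% and 21.5% of all genes. Computed over UMIs without ribosomal protein, mitochondrial, nuclear-retained and ribosomal RNA-overlapping features, the chromatin ratios were still 2.0, 1.50, 1.11 and 1.87. In all 4 libraries 988 of 5033 genes (19.6%) were 2-fold higher and 304 (6.04%) lower.

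The genes leading the ribosome-poor range were Fam193b (log2 3.25, 3.34, 3.02 and 3.80 in control, PH, G and GPH), Lars2 (3.85, 3.53, 2.85 and 3.74), Firre (2.69, 2.96, 2.97 and 3.20), Mid1, a microtubule-associated ubiquitin ligase (3.71, 3.10, 2.66 and 2.90), and Atxn7, a subunit of a histone acetyltransferase complex (3.13, 2.84, 2.64 and 3.02). The lowest included Atp5g2, a subunit of ATP synthase (-2.40, -2.29, -2.27 and -3.09), Eef1b2, a translation elongation factor (-2.27, -2.16, -2.38 and -3.23), and Tomm5, a part of the mitochondrial import pore (-2.51, -2.15, -2.08 and -2.34). In this range genes over 100 kb had median log2 1.74, 1.53, 1.30 and 1.45 and genes under 5 kb -0.83, -0.68, -0.24 and -1.42.

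Members with little mitochondrial RNA were seldom rich in nuclear RNA. Under 1% mitochondrial UMIs, as a bare nucleus would have, were 125 control members (11.1%), 60 PH members (2.75%), 8 G members (2.25%) and 57 GPH members (24.3%), against 0.277%, 0.321%, 0.369% and 0.567% of comparators. Of these, only 6 in control, 3 in GPH and none in PH or G also held nuclear-retained RNA at 500 or more per 10000 UMIs. In contrast, 36, 30, 5 and 23 of them held none. Their median depth was 1008, 1390.5, 1787.5 and 1091 UMIs, so they were among the shallowest members.

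The nuclear-RNA-free members showed the opposite pattern. Their median ribosomal protein share was 42.1%, 40.9%, 48.5% and 41.5% in control, PH, G and GPH, with 437, 409, 347.5 and 403.5 genes at 1000 UMIs. Chromatin regulators had log2 -0.97, -2.16, -1.76 and -2.02, and 9 of 19, 20 of 20, 15 of 20 and 16 of 22 were 2-fold lower, against 22.7%, 43.9%, 48.5% and 30.4% of all genes. Immediate early genes, transcribed within minutes of a stimulus, had -1.19, -1.11, -2.84 and -2.17. Genes over 100 kb had median log2 -0.78, -1.82, -1.45 and -0.75. None of 3842 genes measured in all 4 libraries (0.0%) was 2-fold higher in each, and 328 (8.54%) were 2-fold lower. Within single libraries 2.84%, 1.22%, 1.03% and 3.94% were 2-fold higher. Among the lowest were Hk2, a hexokinase (-2.64, -3.40, -4.08 and -2.95), and Gja1, the gap junction protein connexin 43 (-2.56, -2.38, -3.93 and -3.48).

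**Figure D5:**
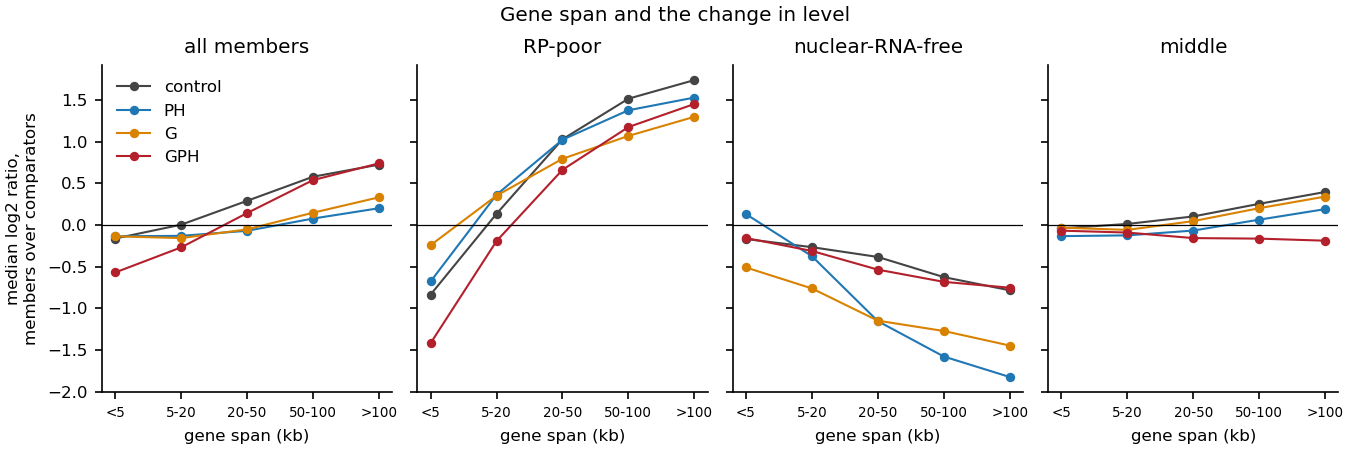
Median log2 ratio to comparators by gene span (kb) for all members and for the 3 ranges in each library. Ribosome-poor members run from below 0 for genes under 5 kb to 1.30 to 1.74 for genes over 100 kb, while nuclear-RNA-free members lie at -1.82 to -0.75 for genes over 100 kb.

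The middle range came closest to the comparators. Only 8 of 4173 genes (0.192%) were 2-fold higher in all 4 libraries and 23 (0.551%) lower. Within single libraries, in the order control, PH, G and GPH, 2.9%, 1.38%, 7.06% and 6.8% were higher and 1.45%, 2.5%, 4.91% and 13.4% lower. Respiratory chain genes had log2 -0.22, -0.13, -0.21 and 0.10, and ribosomal protein genes -0.27, -0.05, -0.26 and 0.03. Summed nuclear-retained RNA stayed higher in control, PH and G (1.19, 1.10 and 1.54) and less so in GPH (0.21). The median GPH barcode did not follow: the 51 members of this range held 2 such UMIs per 1000, against 39 in comparators. In control, PH and G the medians were 33.5, 20 and 25 in members and 20, 11 and 10 in comparators. Mitosis genes stood further below than over all members (-1.77, -2.45, -2.89 and -2.01). Genes above the comparators in this range included Lars2 (1.95, 1.70, 1.75 and 2.06), Prelp, a leucine-rich matrix protein (1.64, 1.79, 1.94 and 1.59), Mylk, myosin light chain kinase (1.38, 1.30, 1.58 and 1.72), and Meox1, a homeobox factor (1.31, 1.53, 1.11 and 1.66).

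Members had mostly other members as neighbours. Among equal numbers of members and comparators at 1000 UMIs, 69.4%, 72.8%, 71.5% and 80.1% of the 15 nearest neighbours of a member were members in the control, PH, G and GPH libraries, against 20.6%, 22.5%, 20.2% and 16.5% for comparators. Without mitochondrial, ribosomal protein and nuclear-retained RNA the shares were 65.9%, 70.7%, 67.6% and 74.5%. With all genes again, the shares by range were 94.0%, 98.1%, 90.2% and 89.1% for ribosome-poor members. For the nuclear-RNA-free range they were 75.4%, 85.1%, 83.4% and 86.2%, and for the middle range 61.0%, 68.9%, 62.2% and 57.6%. Across genes, which are not independent replicates, the summed profile of the members had Spearman's rho with the comparators of 0.886, 0.914, 0.852 and 0.775 in control, PH, G and GPH. With the barcodes over 20% mitochondrial UMIs it was 0.697, 0.699, 0.712 and 0.819, so GPH was the library where this second value was the higher.

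The treatments were compared within the members, each against the same control members. With 1 library per group these comparisons describe the libraries. In PH, 146 of 5329 measured genes (2.74%) were at least 1.5-fold higher than in control and 1200 (22.5%) lower, in G 255 of 5418 (4.71%) and 1446 (26.7%), and in GPH 1652 of 6007 (27.5%) and 1431 (23.8%). CPM without mitochondrial and ribosomal protein UMIs gave 408 higher and 886 lower in PH and 575 and 1362 in G. Centring on the median gene, which lay at log2 -0.26 in PH and -0.29 in G, gave 389 and 507 in PH and 636 and 628 in G, so the excess of lower genes moved with the scaling. In GPH those scalings gave 1720 higher and 1980 lower, and 1516 and 1552, so the small excess of higher genes there turned into an excess of lower ones. In the comparators the shares were 6.31% higher and 8.41% lower in PH, 6.07% and 7.36% in G and 27.0% and 9.49% in GPH. The mixture of ranges differed between the libraries, so values of the middle range are given beside the lists below, and beside those genes where they moved most. In that range 5.33% of measured genes were higher and 16.8% lower in PH, 10.7% and 15.6% in G, and 18.6% and 27.3% in GPH.

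In PH, type I interferon genes were lower, with all 11 measured at least 1.5-fold lower and a median log2 of -1.14 against -0.26 for all genes. In the comparators 7 of 7 were lower, and in the middle range 9 of 10. MHC class II genes, which present antigen, were lower in 6 of 6 in members, comparators and the middle range alike, at a summed 1865 CPM in control and 696 in PH. Hypoxia and glycolysis genes were lower in 16 of 19 (median -0.92), against 10 of 18 in comparators and 15 of 19 in the middle range. Mitosis genes were lower in 9 of 12 in members, in 0 of 17 in comparators and in 6 of 8 in the middle range, and cholesterol synthesis genes in 7 of 10 and 0 of 10, with 5 of 10 in the middle range. Inflammatory targets of NF-kB were higher in 6 of 13, against 7 of 12 in comparators and 7 of 12 in the middle range.

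Among the named genes, Lcn2, a siderophore-binding acute-phase protein, was at 3.52, 55.3, 51.6 and 98.0 CPM in the control, PH, G and GPH members. Its log2 ratio to control was 3.97 in PH (95% interval 3.15 to 4.94), 3.87 in G and 4.80 in GPH, and 2.14, 3.25 and 4.88 in comparators. All 3 treated libraries thus lay above control, from 12 UMIs in the control members. Ccl2, a monocyte attractant, was at 172, 813, 352 and 354 CPM in the control, PH, G and GPH libraries. Slc7a11, the cystine transporter, was at 17.0, 67.1, 50.6 and 188 CPM, and Tnfaip3, an inhibitor of NF-kB signalling, at 17.6, 59.0, 40.5 and 91.6. Over all members the PH ratios were 2.24 for Ccl2, 1.98 for Slc7a11 and 1.75 for Tnfaip3. Within the middle range they were 3.96 for Lcn2, 2.23 for Ccl2, 2.72 for Slc7a11 and 2.72 for Tnfaip3. Idh1, a dehydrogenase that makes NADPH, was at 49.2 CPM in control and 147 in PH, with 20.3 in G and 37.0 in GPH. Fkbp5, a glucocorticoid-induced chaperone, was at 27.3 and 84.8, with 16.6 and 24.1.

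Some genes separated control from PH and G in the same direction in members and comparators. Spata7 was at 158, 24.1, 36.8 and 51.4 CPM in the control, PH, G and GPH members, and Hes1, a Notch target, at 584, 169, 163 and 405. Nmt1, a protein myristoyltransferase, was at 114, 22.7, 21.2 and 61.1 CPM. In comparators the PH ratios were -2.68 for Spata7, -1.91 for Hes1 and -2.16 for Nmt1. The G ratio of Spata7 was -2.10 over all members and -1.32 in the middle range. The heat shock genes Hspa1b and Hsph1 were lower in PH members by more than in comparators (log2 -2.30 and -1.92 against -0.71 and -1.09, with -2.06 and -1.53 in the middle range), a difference that was not tested.

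In G, chromatin regulators were 1.5-fold lower in 12 of 24 in members, in 0 of 20 in comparators and in 2 of 24 in the middle range. Phip, a chromatin reader, followed the same pattern, at log2 -1.77 in members, -0.41 in comparators and -0.75 in the middle range. Mitosis genes were lower in 7 of 12 in members (median log2 -0.76) and in 3 of 8 in the middle range (-0.48), while 10 of 21 were higher in comparators. Saa3, an acute-phase protein, was at 21.4 CPM in control and 105 in G, Ptn, a heparin-binding growth factor, at 73.9 and 271, and Inhba, a subunit of activin, at 72.4 and 216. In the middle range their ratios were 2.92, 1.92 and 2.34, against 2.29, 1.87 and 1.58 over all members. Rgs5, a pericyte gene, was at 3.22 and 62.6 CPM, but all 68 of its UMIs in G lay in 1 barcode.

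In GPH, cholesterol synthesis genes were lower in 9 of 10 (median log2 -1.81), in 9 of 10 in comparators and in 8 of 10 in the middle range. Idi1, an isomerase of that pathway, was at 60.1 CPM in members of control and 6.43 in GPH, and Fdps, farnesyl diphosphate synthase, at 132 and 28.9. The Fdps ratio was -2.20 over all members and -1.03 in the middle range, which held 8 of its UMIs in GPH. Inflammatory targets of NF-kB were higher in 11 of 15, against 13 of 15 in comparators and 8 of 12 in the middle range. Respiratory chain genes were lower in 17 of 24 in all members and in 2 of 24 in the middle range, and chromatin regulators were higher in 16 of 24 and in 3 of 24, a share below that of all genes in that range. Those 2 lists thus differed between the ranges, and the ribosome-poor share of members was 50.5% in GPH and 22.7% in control. In the comparators, of which 10.1% and 1.96% were ribosome-poor, 9 of 24 respiratory chain genes were lower and 15 of 23 chromatin regulators higher.

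The genes with the highest GPH ratios were mostly carried by few barcodes. Gpx3, a secreted glutathione peroxidase, Meg3, a noncoding RNA, and Cygb, cytoglobin, had 0 UMIs in control members and 115.7, 64.3 and 53 CPM in GPH. With a floor of 3 counts put in for the control members, the ratios were 132-fold, 73.1-fold and 60.3-fold. The lower 95% bounds of their log2 ratios were 6.70, 5.83 and 5.53. Of the GPH UMIs of these genes, 76.4%, 85.0% and 87.9% lay in the 14 members with Xist, and the middle range held 10, 6 and 1 UMIs. Rgs5 had 62 UMIs in GPH in 2 barcodes. Chl1, a neural cell adhesion molecule, was different: it was at 1.17 CPM in control and 56.2 in GPH (log2 5.58, and 5.05 in comparators), with 14.3% of its UMIs in members with Xist and log2 5.43 without the host-like members. Lgals1, the galectin abundant in mesenchymal cells, was at 4981, 4666, 5650 and 1734 CPM in the control, PH, G and GPH libraries, with comparators at 7932, 5679, 6244 and 3121. Its GPH ratio was -1.52 over all members and -1.01 in the middle range.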

How the data were processed

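UMI counts per gene and barcode were deposited as 4 filtered 10x matrices (32285 features). The mm10 build is named in the submitters' processing notes, which list Cell Ranger 6.1, while the file headers give 7.0.1. Barcode calling and the treatment of intronic reads are not given in the sources used here. Barcodes with at least 300 genes and at most 20% mitochondrial UMIs were kept. Members, comparators, lists and ranges were chosen with earlier results of these data known. UMIs were summed per population and scaled to CPM (per 1000000 UMIs), and a sum of 0 was set to 3 counts. Ratios used exact conditional binomial and shares exact Clopper-Pearson 95% intervals, for counting error only. Per-barcode measures used random thinning to 1000 UMIs. Gene spans came from the GENCODE vM21 annotation (32158 features matched). Neighbours used 1000 variable genes and 20 principal components. Named genes were the 12 highest and 12 lowest by the ratio nearest to 0 among the 4 libraries, at 50 CPM or more in each. Between libraries they were the 8 highest and 8 lowest by the interval bound nearest to 0, leaving out genes whose level was under 1/10 of that in immune or keratin-high barcodes. This rule left out antigen receptor and haemoglobin genes, predicted and sex-linked genes, and those of ribosomal proteins and mitochondria. A gene that the rule named is not reported here. The ratios were tested on simulated data. Alternatives changed the depth, mitochondrial and Vim limits, the comparators, the scaling and the filter, and left out each library in turn. The work was done in Python 3.11.15 with scikit-learn 1.9.0, scipy 1.17.1, matplotlib 3.10.9 for plots and numpy 2.4.6.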

Additional observations from a re-analysis of the deposited data

Results flagged for a closer look

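The MHC class II list differed in direction between the G and GPH libraries. Its 6 measured genes were higher in members than in comparators in G (summed log2 0.93, with H2-Ab1 at 1.12 and Cd74 at 0.71) and lower in GPH (-0.56, with -0.41 and -0.58). The difference of 1.49 was not tested, since each group is 1 library. In control and PH the list stood at 0.27 and 0.42. In the middle range the values were 0.42, 0.40, 1.19 and 0.17 in control, PH, G and GPH, so the GPH value did not keep its sign there. Immune barcodes, a source of free Cd74 RNA, numbered 9887 in G and 167 in GPH and held Cd74 at 4700 and 3394 CPM. Their part in the result was not tested.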

How the results depend on the processing

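The median ratios of nuclear-retained and ribosomal protein RNA kept their sign under the alternatives run. The nuclear-retained RNA ratio, a median log2 of 1.17 over the 4 libraries (0.83 to 1.59), became 0.83 for members of 500 to under 3000 UMIs, 0.80 against comparators of 5000 to under 20000 UMIs and 0.68 as a mean over barcodes. The ribosomal protein ratio, a median of -0.29 (-0.56 to -0.05), became -0.12 for 500 to under 3000 UMIs, -0.08 with a mitochondrial limit of 10%, -0.18 as a mean over barcodes and -0.16 in the middle range. The highest library then lay above 0 under the first, the second and the last of these (0.08, 0.05 and 0.03), so its sign did not hold in every library. Member shares in control, PH and GPH became 8.63%, 12% and 4.19% for 1000 to under 5000 UMIs. In control, PH, G and GPH they became 4.45%, 5.94%, 1.12% and 2.99% for 500 to under 3000 UMIs, 8.0%, 11.2%, 1.90% and 3.88% with a mitochondrial limit of 10%, and 7.03%, 9.99%, 1.78% and 3.10% with a Vim limit of 20 per 10000, each a stricter limit on the same barcodes.

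The counts of genes 2-fold different in all 4 libraries were the least stable values. The 18 higher genes became 10 for 500 to under 3000 UMIs, 11 with the 10% mitochondrial limit, 9 with the Vim limit of 20, 6 against comparators of 5000 to under 20000 UMIs, 4 as a mean over barcodes, 131 with no filter on CPM, 5 at 100 CPM, 61 without the PH library, 30 without the GPH library and 8 in the middle range alone. The 16 lower genes became 3 for 500 to under 3000 UMIs, 9 with the Vim limit of 20, 0 against comparators of 5000 to under 20000 UMIs, 27 on CPM without mitochondrial and ribosomal protein UMIs, 1 as a mean over barcodes, 33 with no filter, 3 at 100 CPM and 35 without the GPH library. Apart from the filter and the left-out libraries, which change how many genes or libraries are asked, the cause was not tested.

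Genes 1.5-fold changed against control numbered 1346 in PH, 1701 in G and 3083 in GPH. They became 2571 in PH and 2994 in G for 500 to under 3000 UMIs, 3457, 3551 and 4733 with no filter, 219, 222 and 835 at 100 CPM, and 896 in PH when centred on the median gene. The balance in GPH, 1652 higher and 1431 lower, turned to 615 and 1731 for 500 to under 3000 UMIs, 1288 and 1339 with the Vim limit of 20, 1292 and 1386 as a mean over barcodes, 2162 and 2571 with no filter, 410 and 425 at 100 CPM and 1026 and 1507 in the middle range. In G the balance when centred was 636 higher and 628 lower, against 255 and 1446. The middle range and the exclusion of host-like members were chosen after seeing the data. No paired analysis was possible because each group is 1 library. Depth limits the GPH values most, with 235 members.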
